A study of Rattus norvegicus with 6 samples.

Results

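The serotonin transporter gene Slc6a4 and 9 serotonin receptor genes (Htr1a, Htr1b, Htr2a, Htr2c, Htr3a, Htr4, Htr5b, Htr6 and Htr7) were compared in the whole hippocampus of 2 rat lines. Members were taken by name: every probe set whose platform annotation gives exactly 1 gene, where that gene is one of the 10. This gave 18 probe sets for 10 of the 4736 genes named on the array. The Syracuse High Avoidance (SHA) and Syracuse Low Avoidance (SLA) lines are named for their performance in two-way active avoidance, in which a rat can escape a signalled shock by crossing a shuttle box. All animals of both lines had been tested in that task, and their tissue was taken 2 weeks later. There were 3 pools for each line, each pool combined the hippocampi of 3 rats, and each was measured on its own array. The labels give no age, sex, or untested group, and they do not state that the pools of a line hold different rats. The p-values therefore measure the spread between these pools only.

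Serotonin reaches the hippocampus along axons from neurons of the raphe nuclei in the brainstem. The transporter takes released serotonin back up into those axons and is the target of the selective serotonin reuptake inhibitors. Its transcript is made mainly in the raphe cell bodies, whereas the receptors are made by hippocampal cells themselves as well as by afferent neurons. Htr3a encodes a cation channel subunit, and the other receptors couple to G proteins: Htr1a, Htr1b and Htr5b to inhibitory Gi/o, Htr2a and Htr2c to Gq and phospholipase C, and Htr4, Htr6 and Htr7 to Gs and cAMP.

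The deposited values are linear intensities, given here per pool in the order 1, 2, 3. Values under a floor of 8.9 were raised to it before log2 was taken. Differences are SHA minus SLA on the log2 scale with the standard error from limma, and n = 3 pools per line throughout. Of the 18 member probe sets, 12 passed a filter that left out the dimmest 25% of probe sets, and they covered 8 of the 10 genes. Both Htr2a probe sets and the single Htr1b probe set fell under the filter. The filter uses the mean over all pools, so a probe set bright in a single line could pass through that line. No member passed the threshold of an adjusted p under 0.05, where 0% of the 6555 probe sets tested did so. The adjusted p was 1.0 for every member, whether fitted with the filter or, for the 6 dim probe sets, without it. At limma's unadjusted p under 0.05, 2 of the 12 member probe sets were found, against 1.5% of all probe sets tested in either direction and 1.13% lower in SHA. The pools of the lines did not overlap for the same 2 probe sets, against 5.66% of all in either direction and 3.65% lower in SHA. Both belong to Slc6a4 and lay lower in SHA.

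**Figure D1:**
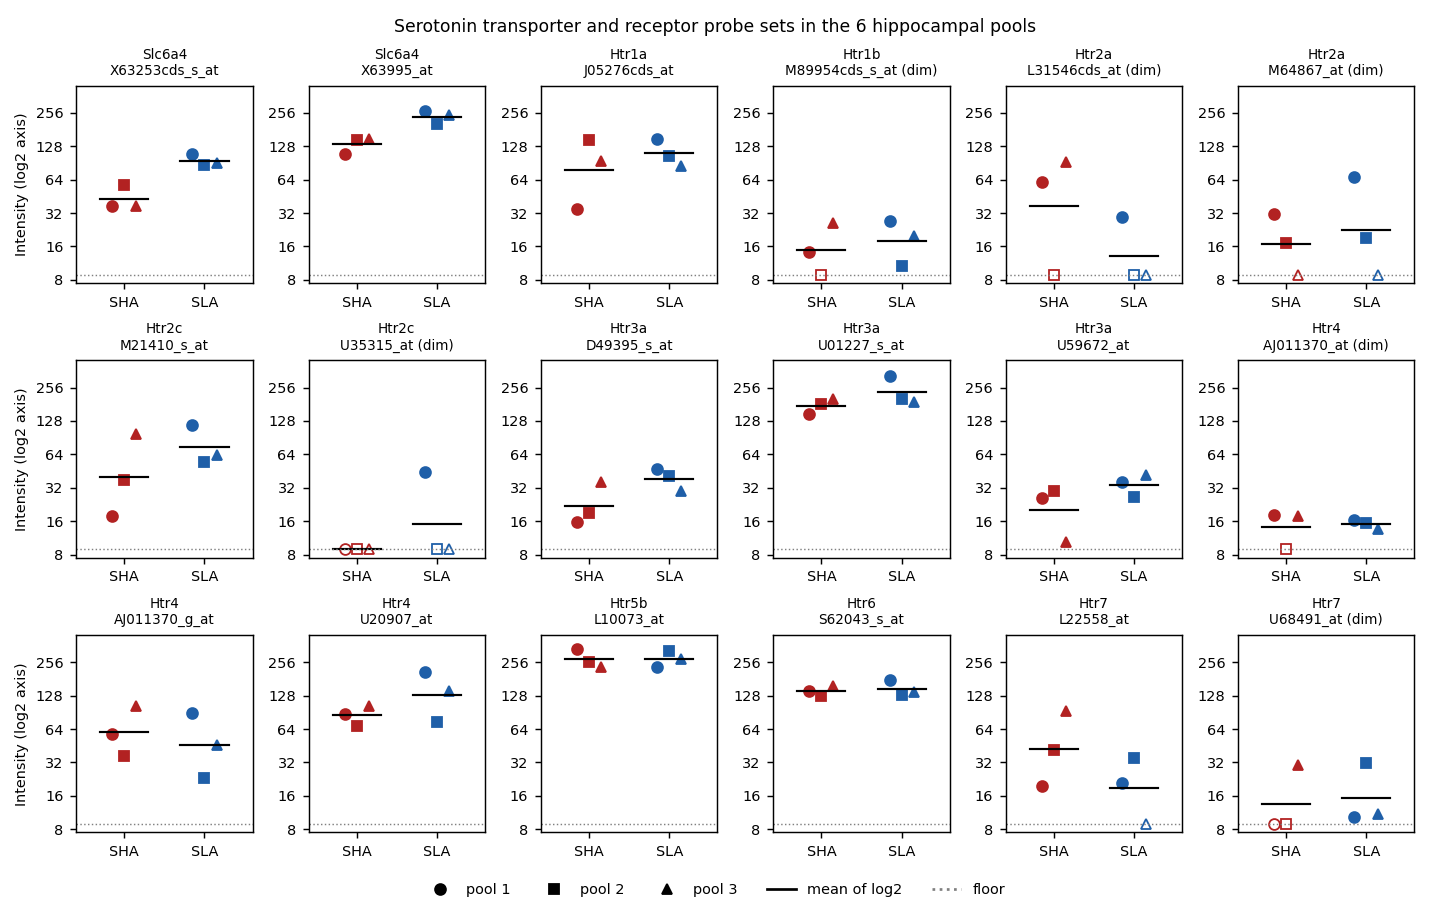
Intensity (log2 axis) of each of the 18 probe sets in the 3 SHA pools (red) and 3 SLA pools (blue). Symbols give the pool number, open symbols are values raised to the floor of 8.9 (dotted line), black bars are means of log2 values, and "dim" marks the 6 probe sets under the filter. The 2 Slc6a4 panels are the ones in which every SHA pool lies under every SLA pool.

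Slc6a4 read lower in SHA on both of its probe sets. X63995_at read 109, 147 and 150.0 in the SHA pools and 264, 204 and 246 in the SLA pools. Every SHA pool thus lay under every SLA pool, with SHA pool 1 the lowest and SLA pool 1 the highest. The means were 135 ± 22.6 (SD) and 238 ± 30.8, and the SLA level was 1.77-fold that of SHA (95% interval 1.09 to 2.86). The log2 difference was -0.82 ± 0.31 (limma, unadjusted p = 0.026, adjusted p = 1.0, lower in SHA in 3 of 3 same-numbered pairs).

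The dimmer probe set X63253cds_s_at had the same order of lines, at 37.0, 57.6 and 37.2 in SHA and 108, 86.7 and 90.3 in SLA. No pool was at the floor. On the log2 scale the gap between the highest SHA pool and the lowest SLA pool was 0.59. That was wider than the range within SLA (0.32) but narrower than the range within SHA (0.64). Here SLA was 2.2-fold SHA (95% interval 1.07 to 4.55), a log2 difference of -1.14 ± 0.47 (limma, unadjusted p = 0.036, adjusted p = 1.0). In the manufacturer's naming an _s_at probe set can match more than one transcript, and the probe sequences were not used here. A value above the floor does not by itself show that hippocampal cells made the transcript. Hcrt and Avp, listed below as markers of neighbouring regions, had mean intensities of 261 and 226 in SHA and 295 and 281 in SLA. In that list Pdyn was brighter and the rest were dimmer. How much of the Slc6a4 signal was hippocampal transcript was not tested.

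The size of the Slc6a4 difference varied between the numbered pools. It was -1.27, -0.48 and -0.71 on X63995_at for the pools numbered 1, 2 and 3, and -1.55, -0.59 and -1.28 on X63253cds_s_at. The pools numbered 1 gave the largest difference and those numbered 2 the smallest on both probe sets. Without both pools numbered 1 the differences were -0.60 and -0.94, the lines still did not overlap, and neither unadjusted p was under 0.05. Leaving out SHA pool 1, SLA pool 1 or SLA pool 3 alone also took both unadjusted p-values to 0.05 or above, with differences between -0.79 and -0.67 on X63995_at and between -1.17 and -1.03 on X63253cds_s_at. Without SHA pool 3 or SLA pool 2 that held for X63253cds_s_at but not for X63995_at. In bulk tissue, fewer cells or axons carrying a transcript and less transcript per cell cannot be told apart.

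Transcripts that mark serotonergic cell bodies were read beside the transporter. Fev, the transcription factor that sets serotonergic identity, read 131, 131 and 227 in SHA and 352, 215 and 225 in SLA. SHA pool 3 overlapped the SLA pools, and the difference was -0.71 ± 0.36. Gata3, another transcription factor of these neurons, read 31.6, 23.9 and 57.5 against 143, 24.6 and 134, a difference of -1.15 ± 0.76 with SLA pool 2 among the SHA values. Slc18a2, the vesicular monoamine transporter, differed by 0.22 ± 0.92 and Gch1, which makes the tetrahydrobiopterin cofactor, by 0.17 ± 0.59. These 2 lay the other way by mean log2 value. The mean intensity of Slc18a2 was nevertheless lower in SHA, at 40.4 against 45.7 in SLA. Tph1, a tryptophan hydroxylase, was at or under the floor in 6 of 6 pools, and Ddc, the decarboxylase that completes serotonin synthesis, was under the filter at 11.9 to 23.2 in SHA and 15.1 to 36.5 in SLA. Of 11 genes in the list, 6 were tested, 2 higher and 4 lower in SHA, Slc6a4 among the lower. The summed intensity of the other 5 ran from 695 to 1087 in SHA and from 1039 to 1356 in SLA. Maob, a monoamine oxidase that glia also make, supplied 433 to 737 of it in SHA and 410 to 978 in SLA. The 4 genes without Maob summed to 262, 255 and 410 in the SHA pools and to 629, 336 and 440 in the SLA pools, so SHA pool 3 overlapped the SLA range. The part of serotonergic cell bodies in the Slc6a4 difference was not tested. Tph2, the brain form of the hydroxylase, had no probe set annotated to it alone and so gave no reading.

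**Figure D2:**
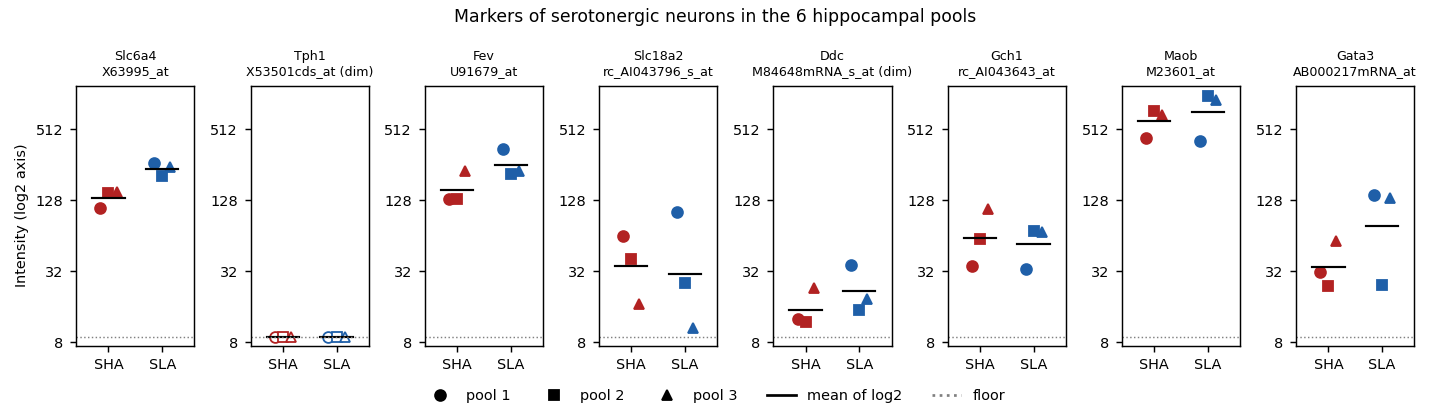
Intensity (log2 axis) of 8 markers of serotonergic neurons in the SHA (red) and SLA (blue) pools, each gene on its probe set of highest mean log2 value. Symbols give the pool number, open symbols are values at the floor of 8.9, and black bars are means of log2 values. Slc6a4 separates the lines, Fev and Gata3 overlap, Slc18a2 and Gch1 have a slightly higher SHA mean of log2 values, and Tph1 is at the floor in 6 of 6 pools.

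The receptors showed no such separation. All 10 receptor probe sets tested had a 95% interval that included 0, 0 of the 10 had an unadjusted p under 0.05 in limma, and the lines overlapped for each. With array weights Htr7 L22558_at had an unadjusted p under 0.05, and after quantile normalization the lines did not overlap for Htr3a D49395_s_at. Their SHA mean was lower for 8 and higher for 2, with a median difference of -0.45, beside a median of -0.01 and 51.9% lower over all probe sets tested. The differences ran from -0.87 to 1.18.

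**Figure D3:**
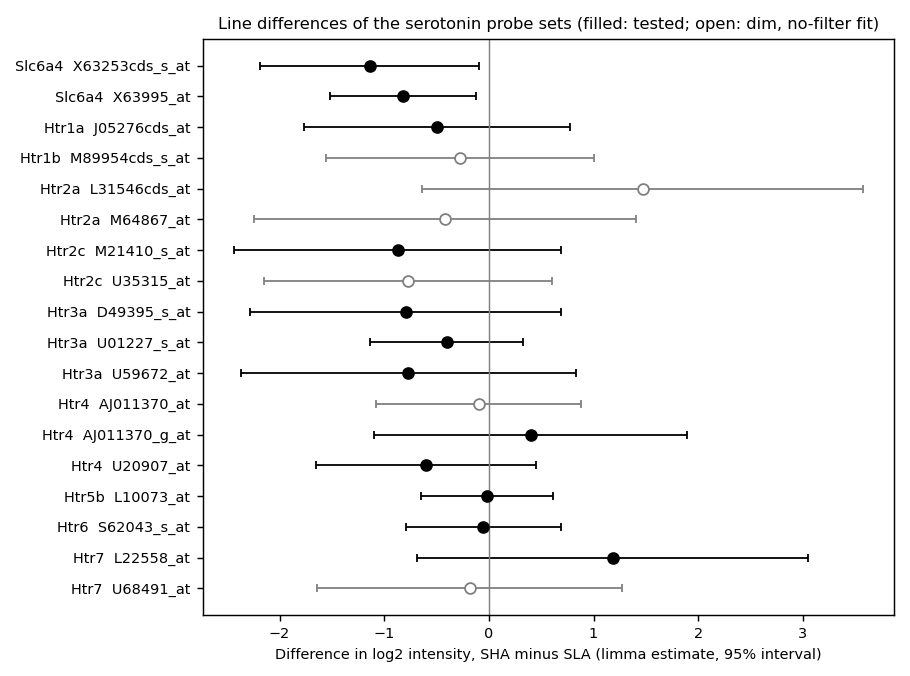
Difference in log2 intensity, SHA minus SLA, for the 18 probe sets, with 95% intervals from limma. Filled symbols are the 12 tested probe sets, and open symbols are the 6 dim ones, from the fit with no filter. The intervals of the 2 Slc6a4 probe sets lie under 0, and all others include 0.

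Among the Gi/o-coupled receptors, Htr1a is the main inhibitory receptor of hippocampal pyramidal cells and also the autoreceptor on raphe cell bodies. It read 35.0, 144 and 95.1 in SHA and 149, 105 and 85.4 in SLA. SHA pool 1 stood low while the other 5 pools lay between 85.4 and 149. The difference of -0.49 ± 0.57 (95% interval -1.77 to 0.78) was 0.09 without SHA pool 1. Htr1b, the autoreceptor of serotonin terminals, was dim, at 14.1, 7.3 and 26.1 against 27.2, 10.7 and 19.9. The Htr1b pools interleaved, with a difference of -0.27 ± 0.56 without the filter. Htr5b, a receptor made in hippocampal field CA1 and the habenula of rodents, read 336, 260 and 231 in SHA and 235, 324 and 276 in SLA, and no pool was near the floor. Its difference was -0.02 ± 0.28 (95% interval -0.65 to 0.61), and the highest and lowest pools were both of the SHA line.

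Of the Gq-coupled receptors, a single Htr2c probe set passed the filter, with no pool at the floor. Htr2c, a receptor also strongly made in the choroid plexus, read 17.8, 37.8 and 98.0 in SHA and 117, 54.8 and 62.6 in SLA on M21410_s_at. The pools overlapped, SHA covered a 2.46 range on the log2 scale, and the difference was -0.87 ± 0.70 (95% interval -2.43 to 0.69). It was -0.28 without SHA pool 1 and 0.055 without both pools numbered 1. The other Htr2c probe set, U35315_at, was at the floor in 5 of 6 pools and read 44.4 in SLA pool 1. Choroid plexus markers had 7 of 8 tested genes lower in SHA with a median of -0.14, and their summed intensity was 1280 to 1656 in SHA and 1482 to 1836 in SLA. Ttr, an abundant choroid plexus transcript, differed by 0.21 ± 0.44, and the part of this tissue in the Htr2c values was not tested. Htr2a, the excitatory receptor bound by classical hallucinogens, had 2 dim probe sets that pointed opposite ways. L31546cds_at read 60.4, 7.4 and 91.6 against 29.3, 8.8 and 5.2 (1.47 ± 0.93 without the filter), and M64867_at read 31.5, 17.1 and 7.2 against 67.0, 19.2 and 6.2 (-0.42 ± 0.80). With 5 of these 12 values at the floor, no direction for Htr2a can be given.

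Htr3a, the channel subunit, is made in the hippocampus mainly by interneurons, and its 3 probe sets all had the lower mean in SHA. The brightest, U01227_s_at, read 148, 181 and 201 in SHA and 323, 203 and 191 in SLA. SLA pool 1 stood above the other 5 pools, and the difference of -0.40 ± 0.33 (95% interval -1.13 to 0.33) was -0.17 without it. D49395_s_at read 15.6, 19.1 and 36.4 against 47.1, 40.5 and 29.7 (-0.80 ± 0.66), with SHA pool 3 above SLA pool 3. U59672_at read 25.9, 30.0 and 10.4 against 35.8, 26.5 and 42.1 (-0.77 ± 0.71), and here SHA pool 3 was the lowest instead. The 3 probe sets therefore did not order the pools alike. Interneuron markers had 11 of 13 tested genes higher in SHA and 2 lower (median 0.17). Cck, a peptide of one interneuron class and of some pyramidal cells, read 1115 ± 118 in SHA and 838 ± 70.1 in SLA, and Vip, a peptide of another class, read 79.9 ± 12.5 and 46.1 ± 18.9, both without overlap between lines.

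The Gs-coupled receptors differed between probe sets of a gene. Htr4, which raises cAMP in pyramidal cells, read 87.9, 68.7 and 104 in SHA and 209, 74.0 and 142 in SLA on U20907_at. SHA was lower in 3 of 3 same-numbered pairs, yet SLA pool 2 fell among the SHA values (-0.60 ± 0.47, 95% interval -1.66 to 0.45). AJ011370_g_at of the same gene read 58.2, 36.8 and 104 against 90.3, 23.0 and 46.4, a difference of 0.40 ± 0.67 with SHA pool 3 highest. The third, AJ011370_at, was dim, at 8.3 to 18.0 in SHA and 13.7 to 16.5 in SLA.

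Htr6, a receptor made mostly in the forebrain, read 142, 128 and 158 in SHA and 178, 130 and 139 in SLA, with a difference of -0.05 ± 0.33 (95% interval -0.79 to 0.68). This was among the narrowest spreads of the members, at 0.30 within SHA and 0.45 within SLA on the log2 scale. Htr7, a receptor of the CA3 field and thalamus, read 19.6, 41.7 and 92.5 in SHA and 20.8, 35.0 and 4.1 in SLA on L22558_at. Its difference of 1.18 ± 0.83 came with SLA pool 3 under the floor and SHA pool 3 the highest, and the pools numbered 1, 2 and 3 differed by -0.09, 0.25 and 3.38. It was 0.65 without SLA pool 3. U68491_at, the other Htr7 probe set, was dim and differed by -0.18 ± 0.64 without the filter.

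The median member difference was largest in size within the pools numbered 1. Htr7 L22558_at, Htr3a U59672_at and Htr4 AJ011370_g_at instead differed most within number 3, by 3.38, -2.02 and 1.16. Within number 1 SHA was lower for 11 of the 12 tested member probe sets, Slc6a4 included, with a median difference of -1.19. Within number 2 it was lower for 8 (median -0.14) and within number 3 for 5 (median 0.12). The same medians over all probe sets tested were -0.09, -0.05 and 0.07. SLA pool 1 was the highest of the 6 pools for 8 of the 12, compared with 27.4% of all probe sets tested, and SHA pool 1 was the lowest for 6 of the 12, compared with 19.5%. The arrays numbered 1 also had the brightest added bacterial and phage controls, with geometric means of 5458 in SHA and 12282 in SLA against 640 to 2279 on the other 4 arrays. Their part in the member values was not tested. Slc6a4 on both probe sets and Htr4 on U20907_at were the 3 probe sets with SHA lower within every number.

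**Figure D4:**
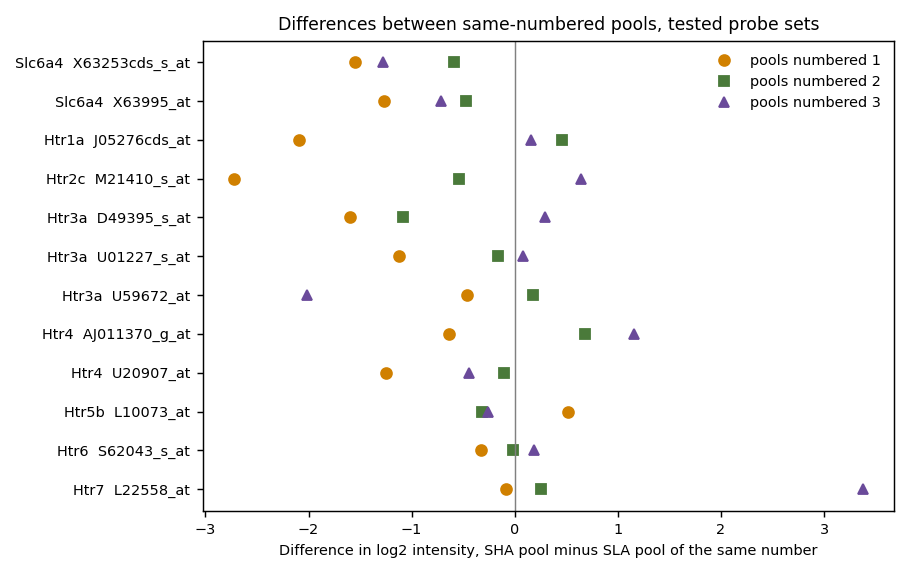
Difference in log2 intensity between the SHA pool and the SLA pool of the same number for the 12 tested probe sets (circles: number 1, squares: number 2, triangles: number 3). For Slc6a4 all 3 symbols of both probe sets lie under 0, as they do for Htr4 U20907_at. A circle lies under -1 for both Slc6a4 probe sets and for 5 of the 10 receptor probe sets. Htr7 has a single triangle at 3.38.

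The 4 other receptor genes on the array, Htr1d, Htr1f, Htr2b and Htr5a, gave 3 tested probe sets, 1 higher and 2 lower in SHA. Htr1d, a terminal autoreceptor, read 82.6, 35.3 and 63.5 in SHA and 157, 58.4 and 67.9 in SLA, with SLA pool 1 again the highest. The differences were -0.58 ± 0.57 for Htr1d, -0.30 ± 0.44 for Htr5a and 0.02 ± 0.58 for Htr2b. Htr1f was under the filter.

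A list for serotonin synthesis, storage and breakdown had 14 of 18 genes on the array tested, 5 higher and 9 lower in SHA (median -0.24). Of these, 0 passed limma's threshold or had an unadjusted p under 0.05. The list also holds the transcription factor Fev, and Aanat and Asmt, which make melatonin from serotonin. It shares Fev, Slc18a2, Gch1, Maob, Tph1 and Ddc with the serotonergic neuron list, so the counts of these lists are not separate readings. Maoa, the oxidase with preference for serotonin, read 445 ± 58.8 in SHA and 376 ± 102 in SLA (0.27 ± 0.27). Maob, the related oxidase of glia and serotonergic neurons, read 616 ± 161 and 768 ± 312 (-0.26 ± 0.37). Aldh2, which oxidises the aldehyde left by these enzymes, read 222, 310 and 183 against 328, 329 and 325, so its lines did not overlap (-0.49 ± 0.29). Slc22a2, a low-affinity cation transporter that also carries serotonin, differed by -1.08 ± 0.74, and Qdpr, which regenerates the hydroxylase cofactor, by -0.35 ± 0.30.

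The transducers and regulators of the receptors had list medians of 0.05 to 0.18, beside -0.01 over all probe sets tested. Gi/o coupling genes had 8 of 13 tested genes higher and 5 lower (median 0.08), with Gnb5, a G protein beta subunit, at 0.35 ± 0.29. Gq and phospholipase C genes had 9 of 14 higher and 5 lower (median 0.08), with Prkca, a protein kinase C, at 1.09 ± 0.63 and Plcb3, a phospholipase C, at 0.94 ± 0.54. Gs and cAMP genes had 9 of 17 higher and 8 lower (median 0.05), with Pde4a, a cAMP phosphodiesterase, at -0.53 ± 0.29 and Prkaca, the catalytic subunit of protein kinase A, at 0.29 ± 0.22. Regulators of receptors and transporter had 9 of 13 higher and 4 lower (median 0.18), with S100a10, the adaptor known as p11 that brings Htr1b and Htr4 to the cell surface, at 0.29 ± 0.47. Over these 4 lists, 0 genes had an unadjusted p under 0.05 in limma.

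The probe sets most like Slc6a4 X63995_at over the 6 pools were found by the root mean square difference of centred log2 values, as a description over 6 arrays. The closest 5 of other genes were Igfals (0.12), Padi2 (0.12), Chrna2 (0.13), Myrf (0.13) and Fxyd1 (0.14). Padi2, a peptidylarginine deiminase, read 396, 475 and 516 in SHA and 794, 673 and 694 in SLA. Myrf, a transcription factor of myelin genes, read 662, 763 and 876 in SHA and 1224, 1054 and 1277 in SLA. The other Slc6a4 probe set ranked 57 among all probe sets tested, at 0.26, and the closest receptor probe set, Htr3a U01227_s_at, ranked 102, at 0.29.

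Genes of hippocampal neurons were also read, without a test of the tissue's identity. Nrgn, a postsynaptic calmodulin-binding protein, read 6460 ± 1586 in SHA and 6063 ± 1555 in SLA, and Hpca, hippocalcin, read 4900 ± 1705 and 4015 ± 97.8. Of 10 tested markers of hippocampal principal neurons 9 were higher in SHA (median 0.26). Camk2a and Neurod1 of this list were dimmer, with means of 266 and 206 in SHA and 223 and 220 in SLA. Slc17a7 was under the filter. Microglia markers had 9 of 9 tested genes lower in SHA (median -0.52). The summed intensity of these 9 was 1202 to 1317 in SHA and 1449 to 2178 in SLA, without overlap. Csf1r and Itgam were under the filter and lay the other way without it, at 1.09 ± 0.76 and 0.09 ± 0.75. Oligodendrocyte markers had 6 of 8 lower (median -0.15), astrocyte markers 3 of 9 (median 0.03) and endothelial markers 5 of 6 (median -0.19). Markers of neighbouring brain regions had 10 of 10 tested genes lower (median -0.24). Their summed intensities were 1771 to 3141 in SHA and 2183 to 3563 in SLA. This list includes Pdyn, which granule cells of the hippocampus also make. Pdyn supplied 944 to 1590 of the sum in SHA and 1159 to 1714 in SLA. Prkcd differed by only -0.01. Among the genes under the filter, Pmch and Calcr lay higher in SHA, and Drd2 differed little. The part of any of these in the Slc6a4 difference was not tested.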

How the data were processed

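The table the authors deposited holds linear intensities, 1 value for each probe set on each of 6 arrays, and the summarisation software is not given in the sources used here. The arrays' 2%-trimmed means lie between 250.3 and 250.4, so they had been scaled, and no further scaling was applied. An overall change of all transcripts is therefore invisible. Array controls (59 of 8799 probe sets) were set aside. Values under the 10th percentile (8.9) were raised to it, log2 was taken, and the dimmest 25% was left out, leaving 6555. Gene names came from the platform annotation, updated by gene number through a RefSeq table of GRCr8 (6985 of 7006 probe sets with 1 symbol matched). Probe sets of a gene were kept apart, except that each gene of a list was read from its probe set of highest mean log2 value.

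The test was limma (version 3.58.1, R 4.3.3): lmFit, then eBayes with a trend on intensity. It was two-sided, with p-values adjusted by Benjamini-Hochberg over all 6555. An exact permutation test of 3 against 3 pools cannot go under 0.1 and was not used. The pipeline was tested on simulated data in which 200 probe sets were given a larger change than that of any member. Noise was drawn independently for each pool, so the simulation does not show how smaller differences or paired pools are handled. Deviations from the line means correlated at 0.44, 0.68 and 0.13 between pools numbered 1, 2 and 3. Each was above the limit of 0.1, which counts as pairing here, although no label says what a number shares. Pools of different numbers correlated at -0.56 to 0.16. The 0.16 was for SHA pool 3 with SLA pool 1 and exceeded the 0.13 of number 3, so the pairing of number 3 is unclear. Arrays correlated at r of 0.779 to 0.963, so none duplicated another. The number of arrays limits the precision.

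All members are named. From each list up to 4 genes of smallest unadjusted p and a few genes fixed by name were eligible, and the 5 nearest profiles to Slc6a4 are given. Other genes were added as further examples after their values were seen, among them Nrgn, Gch1, Hdc, Cpa3, Prkcd, Cma1, Hcrt, Avp, Camk2a and Neurod1. So were genes under the filter, such as Itgam, Pmch, Calcr, Drd2, Hpgds, Mcpt1 and Slc17a7. The members and lists were chosen with earlier results of these data known. Alternatives covered scaling, filter, floor, trend, robust moderation, weighting of arrays, blocking on the pool number, and omission of pools.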

Additional observations from a re-analysis of the deposited data

How the results depend on the processing

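Under the 18 alternatives the 18 member probe sets gave 295 values. The 6 dim probe sets were not read under the settings with no filter or with the dimmer 50% left out. A further 17 values were missing. Most fell under the filter, and those of Htr2c U35315_at and Htr4 AJ011370_at had every remaining pool at the floor. None of the 295 passed the threshold, 268 kept their direction and 27 reversed, over 9 probe sets, none of them of Slc6a4. Over these settings the Slc6a4 difference ran from -0.93 to -0.60 on X63995_at and from -1.35 to -0.81 on X63253cds_s_at, with an adjusted p of 0.25 to 1.0 and 0.34 to 1.0. With the replicate block that pairs pools by number, 2 member probe sets still had an unadjusted p under 0.05 and the adjusted p of both Slc6a4 probe sets was 0.83, while the count over all probe sets went from 98 to 345 (5.26%). The block changed no call. With the replicate block and array weights together 12 probe sets passed, 0 of them members.

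The 2 member probe sets with an unadjusted p under 0.05 numbered 1 when no filter was applied, 1 when the dimmer 50% was removed, 0 without both pools numbered 1, and 0 to 2 on omission of a single pool (0 if SHA pool 1, SLA pool 1 or SLA pool 3 was omitted). They numbered 3 with array weights, where Htr7 L22558_at joined at 1.971 (limma, unadjusted p = 0.028) and 5.4% of all probe sets were found. The weight was 5.03 for SLA pool 3, which was under the floor on L22558_at, and 0.37 to 0.99 for the other pools. The 2 without overlap numbered 3 after quantile normalization, where Htr3a D49395_s_at joined, 1 when the dimmer 50% was removed, where X63253cds_s_at was no longer tested, 4 without both pools numbered 1, and 2 to 5 on omission of a single pool (5 if SHA pool 3 and 4 if SLA pool 3 was omitted). Fewer pools separate more often by construction: the share over all probe sets was then 10.8% to 15.7%, and 24.2% without both pools numbered 1.

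Reversed differences were as follows, and the cause was not tested. With quantile normalization Htr5b was 0.001. With median centring Htr5b was 0.035 and Htr6 0.001. With array weights Htr2a M64867_at was 0.664, Htr4 AJ011370_at 0.033, Htr6 0.042 and Htr7 U68491_at 0.023. With block and weights Htr1a was 0.120. Without both pools numbered 1, Htr1a was 0.305, Htr1b 0.063, Htr2c M21410_s_at 0.055 and Htr6 0.083. On omission of single pools, Htr1a ran from -0.936 to 0.087, Htr1b from -0.681 to 0.095, Htr2a M64867_at from -1.089 to 0.367, Htr4 AJ011370_at from -0.271 to 0.237, Htr4 AJ011370_g_at from -0.096 to 0.890, Htr5b from -0.171 to 0.099, Htr6 from -0.144 to 0.081 and Htr7 U68491_at from -0.774 to 0.339.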

Other observations

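Cells that carry serotonin outside neurons were read from 2 further lists. Platelets take up serotonin through the same transporter, and 4 of 5 tested platelet markers were higher in SHA and 1 lower (median 0.33), with summed intensities of 201 to 550 in SHA and 218 to 337 in SLA. Pf4, a platelet chemokine, read 21.1, 31.2 and 11.9 in SHA and 23.1, 82.3 and 73.1 in SLA, a difference of -1.38 ± 0.74. Itgb3, an integrin subunit of platelets, read 23.8, 33.2 and 101 against 13.9, 14.3 and 20.9, a difference of 1.42 ± 0.76, so these 2 lay in opposite directions.

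Rodent mast cells also store serotonin. Of 13 mast cell genes on the array only 5 passed the filter, all 5 with the lower mean log2 value in SHA (median -0.18). For Cma1 the mean intensity was higher in SHA. The summed intensities of the 5, 504 to 972 in SHA and 598 to 965 in SLA, overlapped. Among the genes under the filter, Ms4a2, Hpgds and Mcpt1 lay higher in SHA and the others lower. Tpsab1, a mast cell tryptase, differed by -0.57 ± 0.51. Hdc, the histamine-forming enzyme, and Cpa3, the mast cell carboxypeptidase, were under the filter, with 3 and 5 of 6 pools at the floor. The part of platelets and mast cells in the Slc6a4 values was not tested.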
